A study of Mus musculus with 15 samples.

Results

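The immunoglobulin heavy variable (Ighv) segments were followed in the lungs of male wild type C57BL/6J mice given a control diet (CS group, n = 3) or a diet with 2% phytosterols (PS group, n = 3). Phytosterols are plant sterols that resemble cholesterol, and C57BL/6J is an inbred laboratory strain. The labels give an age of 28 weeks for all animals, and each library comes from 1 mouse. The study's own text uses this number of weeks for the time on the diet, so the animals may have been older than the labels say. Livers of 4 CS and 5 PS mice were sequenced too, and 6 mice gave both tissues. The segments were selected on the raw lung counts, as rows annotated as immunoglobulin variable genes with a name starting with Ighv and at least 30 counts summed over the 6 lungs. Of 113 such rows, 78 met this minimum and held 25651 counts, while the other rows held 205 counts in all. A further 21 rows had counts below the minimum and 14 were at 0 in every lung. The sum that chose the segments included both diets, and 76 of the 78 would reach it on the CS lungs alone but 47 on the PS lungs alone. Just inside the minimum stood Ighv2-4 with 32 counts and Ighv1-31 with 36, and just outside it Ighv5-2 with 29 and Ighv3-5 with 24.

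In every B lymphocyte, 1 heavy variable segment is joined to a diversity and a joining segment, and the joined exon is spliced to a constant region to make the heavy chain of its antibody. The variable exon lies at the 5′ end of the transcript and binds antigen, and the constant region at the 3′ side sets the class, such as IgM, IgG or IgA. Plasma cells, the antibody-secreting descendants of B cells, make far more of this transcript than resting B cells do. In a bulk sample, reads on 1 segment come from all the clones that use it, so a level of Ighv RNA mixes the number of B lineage cells with the RNA each of them holds, and fewer cells and less RNA per cell cannot be told apart here.

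All 78 segments lie on the minus strand of chromosome 12 (GRCm38), between 113588267 and 116000461, and have the same start and end in GENCODE release M21. Their sequences are related: 35 of the 78 had another of the 78 at 95% identity or more over the coding sequence, the median identity to the nearest was 94.4%, and Ighv1-52 and Ighv1-61 were closest at 98.6%. Reads could therefore be split among near copies, and the treatment of reads with several matches is not given in the sources used here. Counts of a single segment of the large Ighv1 family are uncertain to that extent. The last 240 bases of the germline coding sequence are shown for 6 segments that the results turn on, read from GENCODE M21 transcripts. They are Ighv1-26, which had the most counts (chr12:114788372-114788611), Ighv3-6, the most abundant per length in the CS lungs (chr12:114288152-114288391), Ighv14-3, which had the lowest adjusted p (chr12:114059845-114060084), Ighv1-58, with the lowest fitted log2 fold change among the tested segments (chr12:115312166-115312405), and Ighv1-76 (chr12:115847881-115848120) and Ighv5-15 (chr12:113826646-113826885), which led in single PS lungs. Capitals mark the stretch from the conserved cysteine codon that closes framework 3 to the end of the segment, where the third hypervariable loop begins and where joining takes place.
Ighv1-26: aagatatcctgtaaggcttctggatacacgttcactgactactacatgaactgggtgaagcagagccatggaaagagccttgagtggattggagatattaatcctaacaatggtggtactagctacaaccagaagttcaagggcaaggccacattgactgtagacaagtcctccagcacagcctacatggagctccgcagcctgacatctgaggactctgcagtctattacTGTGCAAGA
Ighv3-6: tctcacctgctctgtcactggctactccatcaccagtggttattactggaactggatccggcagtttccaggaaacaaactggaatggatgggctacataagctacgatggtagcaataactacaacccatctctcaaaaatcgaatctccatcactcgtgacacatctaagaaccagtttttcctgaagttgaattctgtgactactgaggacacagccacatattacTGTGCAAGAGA
Ighv14-3: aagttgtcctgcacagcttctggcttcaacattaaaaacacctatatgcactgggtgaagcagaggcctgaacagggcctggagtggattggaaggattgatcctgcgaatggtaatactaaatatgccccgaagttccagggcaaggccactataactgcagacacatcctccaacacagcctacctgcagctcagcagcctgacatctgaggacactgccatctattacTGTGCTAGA
Ighv1-58: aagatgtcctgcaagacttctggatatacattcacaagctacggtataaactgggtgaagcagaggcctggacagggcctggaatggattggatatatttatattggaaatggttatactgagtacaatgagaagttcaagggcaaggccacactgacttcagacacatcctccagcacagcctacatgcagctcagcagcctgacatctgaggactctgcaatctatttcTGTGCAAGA
Ighv1-76: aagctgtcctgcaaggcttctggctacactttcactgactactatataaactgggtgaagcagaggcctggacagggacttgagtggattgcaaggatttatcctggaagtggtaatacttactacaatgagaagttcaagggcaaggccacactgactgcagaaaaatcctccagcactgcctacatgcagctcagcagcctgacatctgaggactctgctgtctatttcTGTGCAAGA
Ighv5-15: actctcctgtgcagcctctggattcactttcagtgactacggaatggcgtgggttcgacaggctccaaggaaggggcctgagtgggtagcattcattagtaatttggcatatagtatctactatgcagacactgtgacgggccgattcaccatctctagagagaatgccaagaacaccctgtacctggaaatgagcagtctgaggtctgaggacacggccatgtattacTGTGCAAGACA
The ending TGTGCAAGA closed the coding sequence of 39 of the 78 segments, among them Ighv1-26, Ighv1-58 and Ighv1-76. Ighv3-6 and Ighv5-15 carry bases beyond it.

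Ighv counts were lower in the PS lungs. Summed over the 78 segments they were 6758, 5277 and 9386 in CS replicates 1 to 3 and 1482, 732 and 2016 in PS replicates 1 to 3. All counts on genes ranged from 17934930 to 19396057 per lung, so the Ighv sum was 348, 280 and 523 CPM (counts scaled to a total of 1000000 gene counts per library) in the CS lungs and 81.2, 40.5 and 111 CPM in the PS lungs. The diets did not overlap, and the means were 384 ± 125 and 77.6 ± 35.4 CPM (SD, n = 3 each), a level 4.95-fold higher in the CS group. This contrast was known when the segments were picked for description, so the summed level is given without a test.

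**Figure D1:**
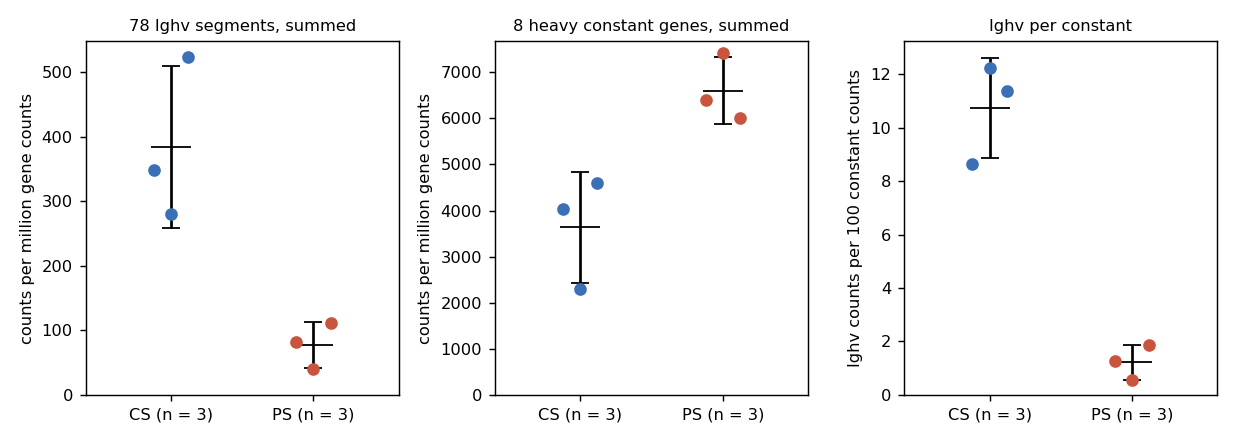
Summed counts of the 78 Ighv segments and of the 8 heavy constant genes, each in CPM, and Ighv counts per 100 heavy constant counts, in 3 CS and 3 PS lungs. Points are lungs and bars show the mean ± SD. The Ighv sum was lower in every PS lung (40.5 to 111) than in any CS lung (280 to 523), and the constant sum was higher in every PS lung.

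Of the 78 segments, 64 passed the filter on low counts and were tested among 16717 genes with edgeR's quasi-likelihood test, and 14 were not tested. At a Benjamini-Hochberg adjusted p under 0.05, 30 of the 64 were downregulated and 0 upregulated in the PS group, beside 4.43% of all tested genes that were downregulated and 4.8% that were upregulated. Of the 30, 19 would reach the 30-count minimum on the PS lungs alone, and 11 met it only through the CS lungs, where they are high, Ighv1-12, Ighv1-58, Ighv1-75, Ighv1-62-2 and Ighv1-4 among them. No segment was higher at an unadjusted p under 0.05 in edgeR, DESeq2 called 0 higher too. DESeq2 called 47 of 73 segments with an adjusted p lower, beside 8.61% of all genes it tested. In edgeR, 49 of the 64 were lower at that p, beside 14.5% of all tested genes. The log2 fold change was below 0 in 63 of the 64, beside 49.6% of all tested genes, with a median of -2.31, beside 0.01 over all tested genes, and ranged from -5.20 to 0.19. Every PS lung lay below every CS lung for 45 of the 78 segments in CPM with TMM-scaled library sizes, 41 of them tested, beside 18.8% of all tested genes. Calls on single segments depended on which lungs were in the fit. Without CS replicate 1, 2 or 3 or PS replicate 2, 4, 5, 0 and 1 segments were called, whereas 29 and 31 were called without PS replicate 1 and PS replicate 3. In the same fits the share of all genes called lower was 0.128%, 0.145%, 0% and 0.041% for the first 4 and 6.95% and 7.67% for the last pair, and the median log2 fold change of the segments stayed between -2.66 and -2.08.

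**Figure D2:**
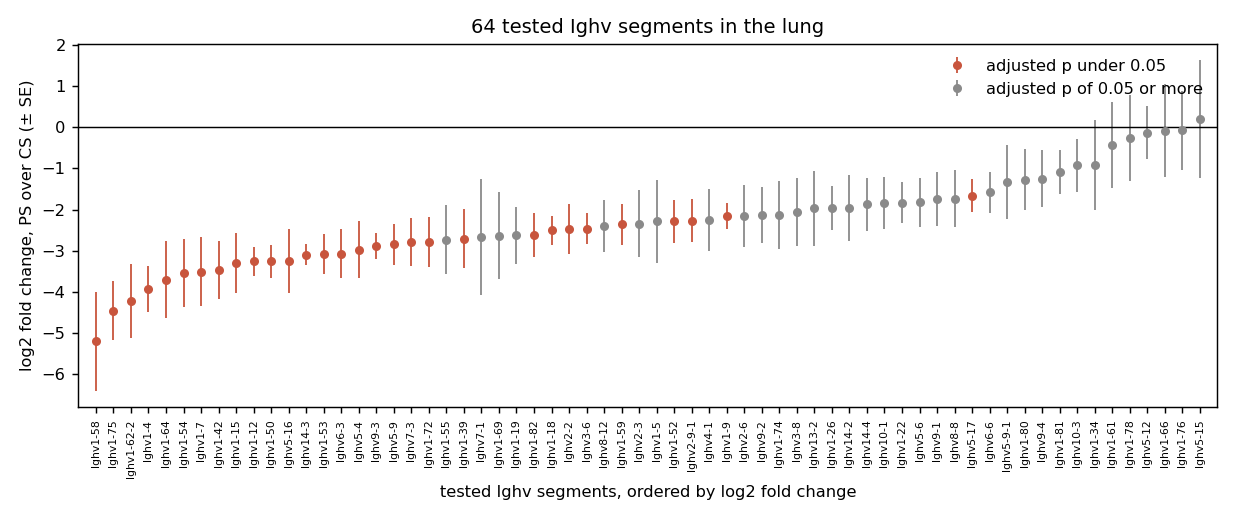
Log2 fold change of the PS group over the CS group for the 64 tested Ighv segments, ordered by size, with the standard error from edgeR (n = 3 per diet). Coloured points are the 30 with an adjusted p under 0.05, and 63 of the 64 points lie below 0.

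Ighv14-3 was the segment with the lowest adjusted p. It had 236, 221 and 190 counts in the CS lungs and 25, 20 and 24 in the PS lungs. The lungs of each diet were close to each other and far from those of the other diet. Its log2 fold change was -3.09 ± 0.25 (SE, n = 3 per diet, edgeR adjusted p = 0.00777). Ighv9-3 had 224, 327 and 352 counts against 50, 28 and 34, and fell by 2.88 on the log2 scale (SE 0.32, edgeR adjusted p = 0.01). Ighv1-12, a less abundant segment, had 74, 68 and 90 counts against 8, 7 and 7, with a log2 fold change of -3.26 ± 0.36.

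Ighv3-6, the most abundant segment per length in the CS group with a mean of 58.7 FPKM (fragments scaled by gene length and library), had 299, 341 and 534 counts in the CS lungs and 71, 35 and 91 in the PS lungs. Ighv1-26 followed closely with 58.6 FPKM. The mean of Ighv3-6 was 10.7 FPKM in the PS group and its log2 fold change was -2.46 ± 0.38 (edgeR adjusted p = 0.0193). Ighv1-18 had 175, 206 and 109 counts against 34, 19 and 25 and fell by 2.51 on the log2 scale, and Ighv1-9 had 152, 207 and 149 against 30, 25 and 49 and fell by 2.16, with edgeR adjusted p-values of 0.0163 and 0.0172. Ighv1-50, with 172, 99 and 166 counts against 8, 14 and 20, fell by 3.26 (edgeR adjusted p = 0.0125). In Ighv3-6, Ighv1-18, Ighv1-9 and Ighv1-50 no PS lung reached the lowest CS lung.

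Among the tested segments, the lowest fitted log2 fold changes were in those with few counts in the PS lungs. These met the 30-count minimum only through the CS lungs, so that lower PS counts came with their selection, and their values are given as a description. Ighv1-58 had 16, 156 and 44 counts in the CS lungs and 5, 0 and 0 in the PS lungs, with a log2 fold change of -5.20 ± 1.20 and most of its counts in CS replicate 2. Ighv1-75 had 55, 29 and 43 counts against 0, 1 and 4 and a log2 fold change of -4.45 ± 0.72. Ighv1-62-2 had 60, 31 and 39 counts against 6, 0 and 0 and a log2 fold change of -4.22 ± 0.89, and Ighv1-4 had 45, 53 and 25 against 3, 3 and 1 with -3.93 ± 0.55. At such counts a fitted fold change is imprecise. The smallest fall among the 30 was in Ighv5-17, with 145, 131 and 306 counts against 42, 50 and 79 and a log2 fold change of -1.67 ± 0.40 (edgeR adjusted p = 0.0407). The remaining downregulated segments were Ighv1-53, Ighv5-9, Ighv6-3, Ighv7-3, Ighv1-42, Ighv1-82, Ighv1-59, Ighv1-72, Ighv1-15, Ighv1-52, Ighv2-9-1, Ighv1-54, Ighv5-4, Ighv1-7, Ighv5-16, Ighv2-2, Ighv1-64 and Ighv1-39. In all 30 every PS lung lay below every CS lung, beside 18.8% of all tested genes. A low adjusted p favours such a separation, so it adds no support. Of the 30, 11 met the minimum only through the CS lungs.

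Of the 20 segments with the most counts over the 6 lungs, 13 were downregulated, beside 4.43% of all tested genes. Ighv1-26, which had the most counts of all, had 416, 139 and 616 counts in the CS lungs and 73, 65 and 141 in the PS lungs, and the diets overlapped at CS replicate 2 and PS replicate 3. Its log2 fold change of -1.97 ± 0.53 missed the threshold (edgeR adjusted p = 0.0543). Ighv1-55 varied from 90 to 584 counts in the CS lungs and from 17 to 77 in the PS lungs (log2 fold change -2.73 ± 0.84, edgeR adjusted p = 0.08). Ighv8-12 had 311, 153 and 357 counts against 46, 10 and 87 and Ighv14-2 had 275, 314 and 122 against 112, 6 and 46, with edgeR adjusted p-values of 0.0516 and 0.152. Ighv14-1, picked after its values were seen, did not pass the filter and had 297 of its 337 counts in CS replicate 3.

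A few segments were as high in 1 PS lung as in the CS lungs, or higher. Ighv1-76 had 120, 40 and 75 counts in the CS lungs and 17, 11 and 180 in the PS lungs (log2 fold change -0.07 ± 0.96). Ighv1-78, which lies near it, had 69, 18 and 86 counts against 12, 5 and 120 (-0.25 ± 1.05). In both, the PS lung that stood apart was replicate 3. Ighv5-15 had 3, 35 and 32 counts against 2, 73 and 0 and was the 1 tested segment with a positive log2 fold change (0.19 ± 1.43), and here replicate 2 stood apart. Ighv1-66, picked after its values were seen, had 25, 30 and 21 counts against 60, 0 and 4, with replicate 1 highest.

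**Figure D3:**
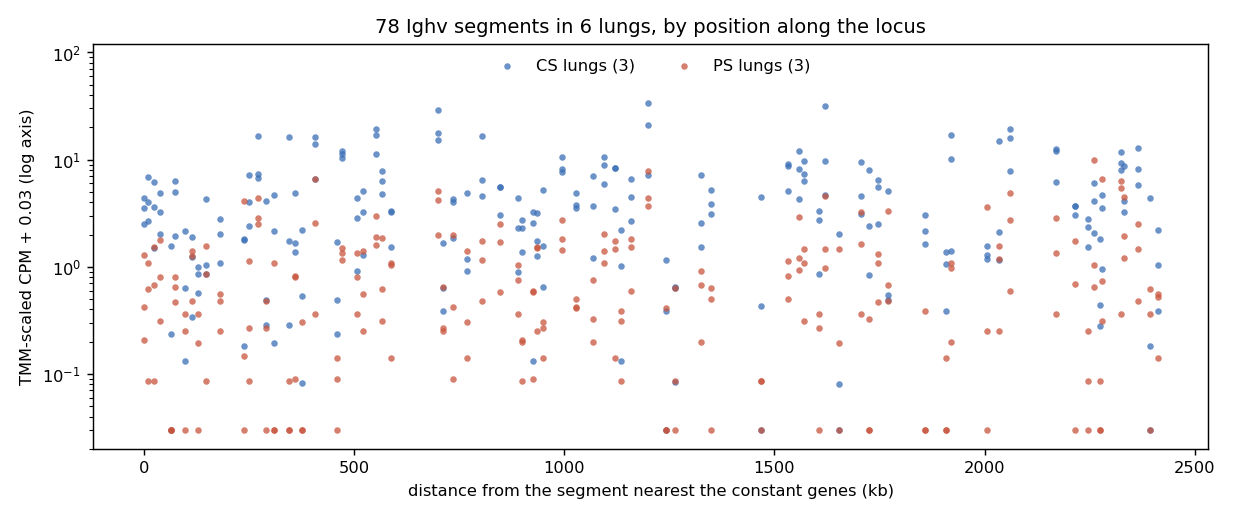
TMM-scaled CPM of each of the 78 Ighv segments in each lung, with 0.03 added so that values of 0 can be drawn, on a log axis, against the distance in kb from the segment nearest the constant genes. Every PS lung lay below every CS lung for 45 of the 78 segments, found along the whole locus, beside 18.8% of all tested genes. Points at the bottom are segments without counts in that lung.

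Segments lowest in the PS group were not gathered in 1 stretch of the locus. The locus was divided by position into 3 stretches of 26 segments. The level was 5.35-fold higher in the CS group in the stretch nearest the constant genes, 5.41-fold in the middle and 4.32-fold farthest away. In the same order, 9 of 20, 11 of 23 and 10 of 21 tested segments were downregulated, beside 4.43% of all tested genes. Among these calls, 11 were on segments that met the count minimum only through the CS lungs. Median log2 fold changes of the stretches were -2.26, -2.29 and -2.41. Across the 64 tested segments, which share their 6 libraries, the log2 fold change had a Spearman correlation of -0.07 with the start coordinate and -0.12 with the length.

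Segments group into families by sequence, and 13 families were present. The large Ighv1 family, with 41 segments, took 52.2 ± 5.18% of the Ighv counts of CS lungs and 51.9 ± 8.42% of those of PS lungs. Its mean level was 203 CPM with the control diet and 42.3 CPM with phytosterols, 4.80-fold apart. Of its 33 tested segments 19 were downregulated, beside 4.43% of all tested genes. Ighv5 had 32.2 and 8.80 CPM, 3.66-fold apart, and 4 of its 8 tested segments were downregulated, beside the same share of all genes. In Ighv1 and Ighv5 the downregulated segments included some that met the count minimum only through the CS lungs. Ighv14 had 33.0 and 4.98 CPM (6.61-fold), and Ighv3 had 25.5 and 4.50 (5.66-fold). The family ratios ran from 2.75 in Ighv10 to 14.5 in Ighv11, a family of 1 segment with 47 counts in all. In CPM the diets did not overlap in 12 families but overlapped in Ighv13, whereas the shares of the Ighv counts overlapped between diets in every family. Ighv5 took 20.5% of the Ighv counts in PS replicate 2 and from 7.66% to 9.82% in the other lungs.

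The counts were spread less evenly over the selected segments in the PS lungs. Evenness was taken as the Shannon entropy of the segment shares divided by its highest possible value, so that 1 means equal shares. It was 0.897, 0.880 and 0.904 in the CS lungs and 0.864, 0.836 and 0.854 in the PS lungs, with means of 0.894 ± 0.012 and 0.851 ± 0.015 (SD, n = 3 each) and no overlap. As an effective number of equally used segments this was 49.2 ± 2.60 against 40.8 ± 2.58 in PS lungs. Fewer counts alone lower both measures, so each lung was also thinned to 732 Ighv counts, the number in PS replicate 2, in 1000 draws. The thinned effective number was 46.9 ± 2.33 and 40.1 ± 2.05, again without overlap. With 3 lungs per diet an exact two-sided permutation test cannot go below p = 0.1, and no p-value is given.

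**Figure D4:**
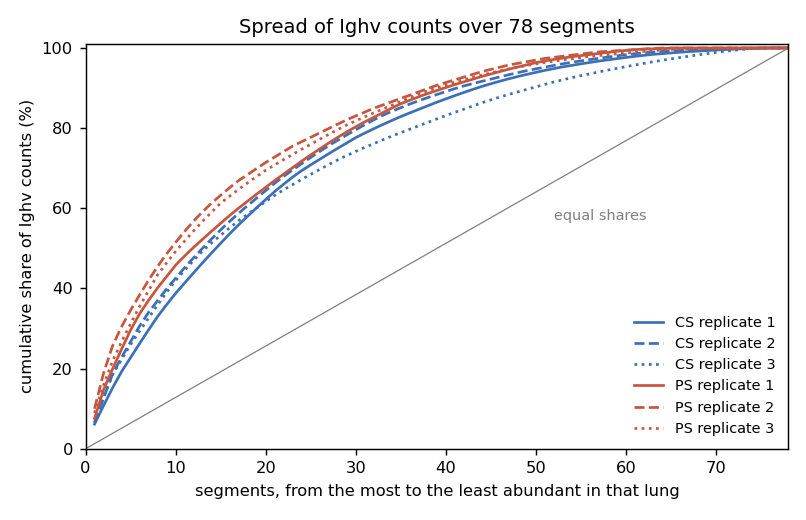
Cumulative share of a lung's Ighv counts taken by its segments, ordered from the most to the least abundant, for 3 CS and 3 PS lungs, with the line of equal shares in grey. The 10 most abundant segments held a mean of 41.1% of the counts in CS lungs and 48.9% in PS lungs.

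The leading segment took 6.16%, 6.46% and 6.56% of the Ighv counts in the CS lungs and 7.56%, 9.97% and 8.93% in the PS lungs. It was Ighv1-26 in CS replicates 1 and 3 and Ighv3-6 in CS replicate 2. In the PS lungs it was a different segment each time: Ighv14-2 with 112 counts in replicate 1 (95% Wilson interval 6.32 to 9.02%), Ighv5-15 with 73 counts in replicate 2 (8.01 to 12.4%) and Ighv1-76 with 180 counts in replicate 3 (7.76 to 10.3%). These intervals cover counting error only. Ighv1-80 followed in PS replicate 1 with 7.15%, Ighv1-26 was second in PS replicates 2 and 3, and Ighv5-17 and Ighv1-78 came next there with 6.83% and 5.95%. The CS lungs detected 77, 75 and 77 of the 78 segments and the PS lungs 66, 64 and 71. After thinning to 732 Ighv counts the means were 70.0 ± 3.02 and 64.1 ± 1.14. Of the 78 segments, 76 would meet the count minimum on the CS lungs alone and 47 on the PS lungs alone. The selection thus favoured detection in the CS lungs, with and without thinning. As shares, 68 segments overlapped between the diets, 9 were lower in every PS lung and 1 was higher, Ighv5-12, named after its values were seen. No share over all genes exists for this measure, and in CPM 18.8% of all tested genes were lower in every PS lung and 17.3% higher. Of the 9, all but Ighv1-53 met the count minimum only through the CS lungs. Lower PS shares came with their selection, so the 9 are given as a description. Ighv5-12 had 24, 6 and 34 counts in the CS lungs and 21, 8 and 25 in the PS lungs, so its level overlapped between diets (log2 fold change -0.13 ± 0.65). The Spearman correlation of the counts over the 78 segments ran from 0.58 to 0.74 between CS lungs, from 0.45 to 0.61 between PS lungs and from 0.43 to 0.73 across the diets, where PS lungs have fewer counts.

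The constant regions of the same heavy chain transcripts were not lower beside the variable segments. The 8 heavy constant genes summed to 4028, 2289 and 4597 CPM in the CS lungs and 6397, 7413 and 5997 in the PS lungs, so the PS group was higher without overlap (3638 ± 1202 against 6602 ± 730). Of the 7 that were tested, 0 passed an adjusted p under 0.05 in edgeR, 4 had an unadjusted p under 0.05, beside 30.1% of all tested genes, and DESeq2 called 3, beside 17.6% of all genes in either direction. Igha, of the IgA class of mucosal surfaces and the most abundant, had 50830, 28738 and 45533 counts in the CS lungs and 58594, 68626 and 68612 in the PS lungs (log2 fold change 0.77 ± 0.24, edgeR adjusted p = 0.0749). Ighg1, an IgG class gene, had 1930, 475 and 2133 counts against 6405, 10687 and 4183 (2.34 ± 0.60, edgeR adjusted p = 0.053), and Ighg2c, another, had a log2 fold change of 1.33 ± 0.44 (edgeR adjusted p = 0.0841). Ighm, of the IgM class, had 0.50 ± 0.38 and Ighd, of naive B cells, -0.45 ± 0.27. Set against these counts, there were 8.65, 12.2 and 11.4 Ighv counts per 100 heavy constant counts in the CS lungs and 1.27, 0.546 and 1.85 in the PS lungs. The means were 10.8 ± 1.87 and 1.22 ± 0.65, 8.79-fold apart, beside 4.95-fold for the Ighv sum itself.

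The same measure was lower in the PS lungs at 4 further antigen receptor loci, a comparison made after the Ighv values were seen. Variable counts per 100 constant counts were 35.2 ± 7.51 with the control diet and 9.35 ± 3.48 with phytosterols for the kappa light chain, and 65.7 ± 5.32 and 30.5 ± 7.93 for the lambda light chain. They were 20.4 ± 0.53 and 4.79 ± 2.32 for the beta chain of the T cell receptor, which B cells do not make, and 15.9 ± 3.25 and 5.21 ± 3.58 for its alpha chain, where a lung held from 3 to 45 variable counts. In none of these ratios did the diets overlap. In kappa, the variable counts were 760 ± 243 CPM (CS) and 459 ± 71.8 CPM (PS), and the constant counts were 2226 ± 749 and 5463 ± 2256 CPM. Lambda differed in this: its variable counts overlapped between the diets at 102 ± 39.7 and 99.4 ± 18.6 CPM, and its constant counts were 154 ± 52.2 CPM with the control diet and 349 ± 129 CPM with phytosterols. In the T cell receptor beta chain the variable counts were 6.94 ± 1.47 and 2.02 ± 0.74 CPM without overlap, and the constant counts overlapped at 34.0 ± 6.65 and 46.6 ± 16.2 CPM. The alpha chain had variable counts of 1.68 ± 0.57 and 0.59 ± 0.39 CPM without overlap, and constant counts that overlapped. Of 71 tested light chain variable segments 6 were downregulated and 0 upregulated, beside 4.43% and 4.8% of all tested genes, with a median log2 fold change of -0.79. Calls among them were 0, 2, 0 and 0 without CS replicate 1, 2 or 3 or PS replicate 2, and 17 without PS replicate 1, where 6.95% of all genes were called lower.

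**Figure D5:**
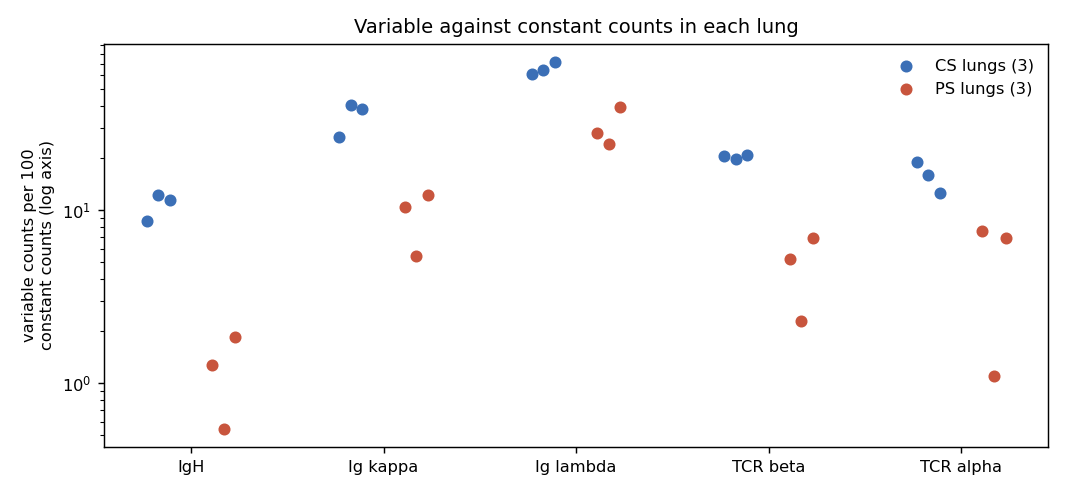
Counts on variable segments per 100 counts on constant genes in each of 3 CS and 3 PS lungs, on a log axis, for the immunoglobulin heavy (IgH), kappa and lambda chains and the T cell receptor (TCR) beta and alpha chains. Every PS lung lies below every CS lung at each of the 5 loci.

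Other measures moved with the Ighv sum. Gamma protocadherins, cell adhesion genes outside the immune system whose variable first exons are also spliced to shared constant exons, summed to 38.7 ± 4.24 CPM in CS lungs and 16.1 ± 5.80 CPM in PS lungs, without overlap. Beta protocadherins, which are single-exon genes of the same region, summed to 44.9 ± 0.75 and 41.0 ± 4.18 and overlapped. Mitochondrial genes took 3.08%, 2.94% and 3.51% of the counts in the CS lungs and 6.13%, 7.28% and 3.69% in the PS lungs. Among the tested genes that are not annotated as immunoglobulin genes, the median log2 fold change was 0.27 for those with under 500 exonic bases. It was -0.07 for those with 4000 or more, whereas the Ighv rows, of 347 to 480 bases, had a median of -2.31. The part of coverage along transcripts or of RNA quality in the Ighv result was not tested.

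Markers of the cells that carry Ighv transcripts were measured in the same lungs. Of 15 B cell genes, 2 were downregulated and 0 upregulated, beside 4.43% and 4.8% of all tested genes, with a median log2 fold change of -0.52. The 2 were Cxcr5, a receptor that guides B cells into follicles (-1.53 ± 0.31, edgeR adjusted p = 0.0301), and Bank1, an adaptor of B cell signalling (-1.27 ± 0.28, edgeR adjusted p = 0.0346). Cd79a, part of the B cell receptor complex, had a log2 fold change of -0.13 ± 0.23, and Ms4a1, which encodes CD20, had -1.08 ± 0.36 (edgeR adjusted p = 0.0867). The summed level of the list was 207 to 339 CPM in the CS lungs and 153 to 210 in the PS lungs, and none of the 15 was at 0 in any lung. Without CS replicate 1, 2 or 3 or PS replicate 2, 0 of these genes were called, and 4 were called without PS replicate 1, where 6.95% of all genes were called lower.

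Of 12 plasma cell genes, 2 were upregulated and 0 downregulated, beside 4.8% and 4.43% of all tested genes. The log2 fold change was above 0 in 8 of them and below 0 in 4, with a median of 0.49. Derl3 and Fkbp11, which serve protein quality control and folding in the endoplasmic reticulum, had log2 fold changes of 1.48 ± 0.30 and 1.16 ± 0.25 (edgeR adjusted p = 0.0301 and 0.0334). Jchain, which links IgA and IgM into polymers, had 0.67 ± 0.26 (edgeR adjusted p = 0.121). Sdc1, which encodes the surface marker CD138, and Prdm1, a transcription factor of plasma cell differentiation, had log2 fold changes of -0.55 ± 0.19 and -0.67 ± 0.29 (edgeR adjusted p = 0.0905 and 0.155). Without CS replicate 1, 2 or 3 or PS replicate 2 the calls were 0 here too, and without PS replicate 1 they were 4, in a fit that called 17.1% of all genes in either direction. The list summed to 1304 to 1940 CPM in the CS lungs and 1957 to 2265 in the PS lungs. The ranges nearly met, and most of the sum was Jchain (916 ± 287 TMM-scaled CPM in CS lungs and 1452 ± 197 in PS lungs). The part of either cell type in the Ighv result was not tested.

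Among 21 genes of B cell receptor signalling, 0 were upregulated and 1 was downregulated, beside 4.8% and 4.43% of all tested genes. It was Pik3ap1, an adaptor for phosphoinositide 3-kinase (-1.51 ± 0.24, edgeR adjusted p = 0.0198), and the median was 0.05. Of 5 tested germinal centre genes 1 was upregulated and 1 downregulated, beside the same shares of all genes. Mef2b rose (1.74 ± 0.42, edgeR adjusted p = 0.0406) from 8 counts in each CS lung, and S1pr2, a receptor that holds B cells in the centre, fell (-0.89 ± 0.18, edgeR adjusted p = 0.0284). None of 14 tested genes of V(D)J recombination and class switching passed in edgeR, while 5 had an unadjusted p under 0.05, beside 30.1% of all tested genes, and none of 10 genes of antibody export, homing and survival did, while 1 had an unadjusted p under 0.05. DESeq2 called 0 of the first and 1 of the second list, and in edgeR 1 gene of the first was called without PS replicate 1 and 1 without PS replicate 3. Of all genes, these 3 fits called 17.6%, 17.1% and 13.2% in either direction. The 4 heavy joining segments had at most 7 counts each in a lung. T cell markers (0 of 11 called) summed to 118 to 168 CPM in the CS lungs and 117 to 151 in the PS lungs, and lymphoid stroma (0 of 4) and lung epithelium (0 of 6) markers passed in no case in edgeR. At an unadjusted p under 0.05 these 3 lists had 1, 0 and 1 genes, and DESeq2 called 0, 0 and 1. Of 5 red blood cell genes 1, Alas2, was downregulated, beside 4.43% of all tested genes (edgeR adjusted p = 0.0354). The calls in the signalling, germinal centre and red blood cell lists were also 0 without CS replicate 1, 2 or 3 or PS replicate 2, and 2 in each of them without PS replicate 1. Without PS replicate 3 they were 3, 1 and 2 in that order. Hepatocyte genes summed to 92.9 CPM in CS replicate 1 and to at most 14.6 in the other lungs.

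Ighv counts were few in the liver. They were 75, 8, 89 and 29 in the CS livers and 21, 118, 24, 85 and 47 in the PS livers, and 62 of the 78 segments had a count in at least 1 liver. The means were 3.06 ± 2.30 CPM (n = 4) and 3.55 ± 2.33 CPM (n = 5), and the diets overlapped. No segment passed the filter on low counts there. Among the 13195 genes that did, 0.00758% were called in edgeR. Without the filter 62 segments were tested and 0 were called or had an unadjusted p under 0.05 in edgeR, beside 0.106% of all genes called in that fit. DESeq2 gave an adjusted p to 1 segment and called 0, beside 0.903% of all genes. The liver counts of a single segment were at most 13, and the size of a difference that they could show was not tested. Ighv counts per 100 heavy constant counts were 5.83 ± 4.96 in the CS livers and 3.99 ± 2.56 in the PS livers. In CS replicate 2 all 8 Ighv counts fell on Ighv5-16. Whether the diet difference in the lung and that in the liver differ was not tested.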

How the data were processed

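RNA was sequenced from 6 lungs and 9 livers. The authors purified poly-A RNA, made libraries with random hexamer primers, aligned reads to mm10 with HISAT2 2.0.5 and counted them per gene with featureCounts 1.5.0-p3. Raw counts and FPKM values for 54532 genes were deposited by the authors, the FPKM scaled by gene length and library. The strand setting and the treatment of reads with several matches are not given in the sources used here. Samples were grouped by their labels, and p-values measure the spread between mice.

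The segments and gene lists were chosen with earlier results of these data known. From the counts, edgeR 4.0.16 (TMM normalization, default filter on low counts, robust quasi-likelihood test, R 4.3.3) compared the diets within each tissue, with Benjamini-Hochberg adjustment over all tested genes. Other settings tried were scaling by size factors, the Wald test of DESeq2 1.42.0, a fit with the filter off, a minimum of 10 counts per library, limma 3.58.1 on log2 FPKM with 1 or 0.1 added, the replicate number as a block, and dropping each library in turn. The fits were tested on simulated data. Evenness, thinning and Wilson intervals used Python. Lung depth was 17934930 to 19396057 counts, and segments with fewer than about 30 counts over 6 lungs are imprecise. Named are the downregulated segments, the 3 with the largest share in each lung, the 5 with the most counts, those around the minimum and the genes of the lists. Ighv14-1, Ighv1-66 and Ighv5-12 were named outside this rule after their values were seen, and Ighv1-61 for its sequence identity. Near-identity was computed from GENCODE M21 transcripts. Some genes of the lists are not reported here by name.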

Additional observations from a re-analysis of the deposited data

Results flagged for a closer look

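In the livers, the heavy constant genes summed to 223 CPM in CS replicate 2, against 48.6 to 53.2 in the other 3 CS livers. The gap to the nearest liver was 0.974 of the group's range, above the limit of Dixon's test for 4 samples, and chance gives such a value in about 1 in 20 groups (6 were checked). The same liver held 3430 heavy constant counts and 8 Ighv counts.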

How the results depend on the processing

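The summed Ighv level, the evenness and the effective number kept their direction under every alternative that gave a value, and 0 segments were called higher in any of them. Adding pseudogene segments gave no other value, because none of the 70 such rows reached the minimum. The number of downregulated segments was 47 with DESeq2's Wald test and 10 of 14 tested with at least 10 counts in every library, and it ranged from 0 to 31 on leaving out 1 lung. Calls on B cell genes were 5 with DESeq2, 1 with limma at either pseudocount, 5 with the replicate block and 0 to 4 on leaving out 1 lung. Plasma cell genes gave 5 calls with DESeq2 and 0 to 4 on leaving out 1 lung. Heavy constant genes gave 3 calls with DESeq2, 1 without a filter and 1 with at least 10 counts in every library. Light chain variable segments gave 20 with DESeq2, 10 without a filter and 0 to 17 on leaving out 1 lung. Of all genes, 9.22% were called in either direction in the fit reported, 17.6% with DESeq2, 8.02% without a filter, 9.86% with at least 10 counts in every library, 5.86% and 5.91% with limma, 9.71% with the replicate block and 0 to 17.1% on leaving out 1 lung. The cause of these shifts was not tested. Ighv5-15 turned to -0.53 and -1.57 in the limma fits on log2(FPKM + 1) and log2(FPKM + 0.1) and to -0.79 with the replicate block, and ranged from -4.26 to 0.78 on leaving out 1 lung. Ighv1-76 ranged from -2.32 to 0.43 and Ighv1-78 from -2.60 to 0.28. Replicate numbers do not pair the lungs: deviations of same-numbered lungs had correlations of 0.05, -0.01 and 0.08. With the replicate block 36 segments were downregulated. Few counts per segment in the PS lungs limit single fold changes.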
